A study of Capra hircus with 6 samples.

Results

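The 10 genes described here, DDIT4, IRS1, IRS2, INSR, MTOR, RPTOR, TSC1, TSC2, DEPTOR and SESN1, encode regulators of insulin and mTORC1 signalling. They were chosen by gene symbol, with earlier results of these data known. All 10 had a row among the 16262 gene symbols of the deposited tables. The data are RNA sequencing of goat (Capra hircus) mesenchymal stem cells taken from adipose tissue, a source of new adipocytes. The TAZ group held 3 libraries of cells overexpressing TAZ, the product of WWTR1 and a coactivator that the Hippo kinases restrain. The Control group held 3 libraries of wild-type (WT) genotype, and all 6 libraries were labelled as adipogenic differentiation. The labels give no day of differentiation, no vector or promoter for TAZ and no word on whether the line is a clone or whether replicates came from separate cultures, so the replicate spread behind each p-value could be technical only. The title of the series names TNF-α, but no sample label gives a cytokine.

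Insulin binds its receptor, encoded by INSR, which phosphorylates the adaptors IRS1 and IRS2 and so engages PI3-kinase and the kinase AKT. AKT inhibits the TSC1-TSC2 complex, and this frees the small GTPase RHEB to activate mTORC1, the complex of the kinase mTOR with Raptor (RPTOR) that drives protein and lipid synthesis. DDIT4 (also REDD1) and the sestrins restrain mTORC1 under stress, DEPTOR binds and inhibits mTOR itself, and active mTORC1 feeds back on IRS1. In fat cell precursors, insulin is a standard part of the medium that starts differentiation.

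Values are given in FPKM, counts divided by gene length and by library total, so levels can be set side by side between genes. The low values step in whole counts, from which library totals of 34070962, 37705644 and 36926906 counts were recovered in TAZ replicates 1, 2 and 3, and of 34967990, 33871397 and 34594066 counts in Control replicates 1, 2 and 3. Whether 1 count is a read or a read pair is not given in the labels. The scale of all counts was taken as the largest at which most gene lengths came out whole, and was checked against RefSeq gene spans. WWTR1, the overexpressed gene, had 13692, 21160 and 14770 counts in TAZ replicates 1, 2 and 3, against 5011, 4804 and 5893 counts in Control replicates 1, 2 and 3. Reads of an added copy and of the cells' own gene cannot be told apart in that row. All 9 stromal markers passed the filter, with a summed level of 9854 to 11200 FPKM in TAZ libraries and 9008 to 9931 FPKM in Control libraries. Most of that sum was COL1A1, COL1A2 and DCN, and single markers went different ways. THY1 (94.9 to 116 FPKM in TAZ libraries, 129 to 147 in Control libraries) and ENG (88.6 to 99.5 and 138 to 167) were lower in every TAZ library. PDGFRB (67.3 to 76.1 and 37.7 to 44.3), DCN and COL1A1 were higher in every TAZ library, and the other stromal markers overlapped. The 6 fat cell markers summed to 17.6 to 20.5 FPKM in TAZ libraries and 19.0 to 21.6 FPKM in Control libraries, and PPARG, ADIPOQ, PLIN1 and LPL stayed under 1 FPKM in all 6 libraries. Most of that sum was CIDEC, a lipid droplet protein gene, at 16.6 to 19.1 FPKM in TAZ libraries and 16.8 to 19.3 FPKM in Control libraries. CEBPA, a factor of fat cell formation, fell to 0.862 to 1.03 FPKM in TAZ libraries, against 1.82 to 1.93 FPKM in Control libraries (log2 fold change -0.55, limma adjusted p = 0.000439). Its part in the other results was not tested. Markers of endothelial, epithelial and skeletal muscle cells summed to at most 0.316, 0.311 and 0.348 FPKM in TAZ libraries and at most 0.533, 0.474 and 0.422 FPKM in Control libraries. Leukocyte markers summed to 3.09 to 3.64 FPKM in TAZ libraries and 5.11 to 5.71 FPKM in Control libraries, mostly CD68, while PTPRC, the defining leukocyte gene, was listed at 0 in all 6.

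DDIT4, the stress-induced inhibitor of mTORC1, was the member that changed most. It stood at 85.6, 122 and 97.6 FPKM in TAZ replicates 1, 2 and 3, against 18.6, 27.1 and 18.9 FPKM in Control replicates 1, 2 and 3. Every TAZ library lay far above every Control library, and replicate 2 was the highest in both groups. These values rest on 5053 to 7966 counts per TAZ library and 1126 to 1590 counts per Control library. The group values were 102 ± 18.5 FPKM in TAZ cells and 21.5 ± 4.83 FPKM in Control cells (SD, n = 3 each), a ratio of means of 4.73. On the log2(FPKM + 1) scale used for all tests here, DDIT4 rose by 2.19 (SE 0.15, 95% interval 1.88 to 2.51, limma adjusted p = 8.88e-08). This was the 112th largest rise among 10750 genes tested. In a bulk sample, a change in the share of cells that express a gene and a change in its RNA per cell cannot be told apart.

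**Figure D1:**
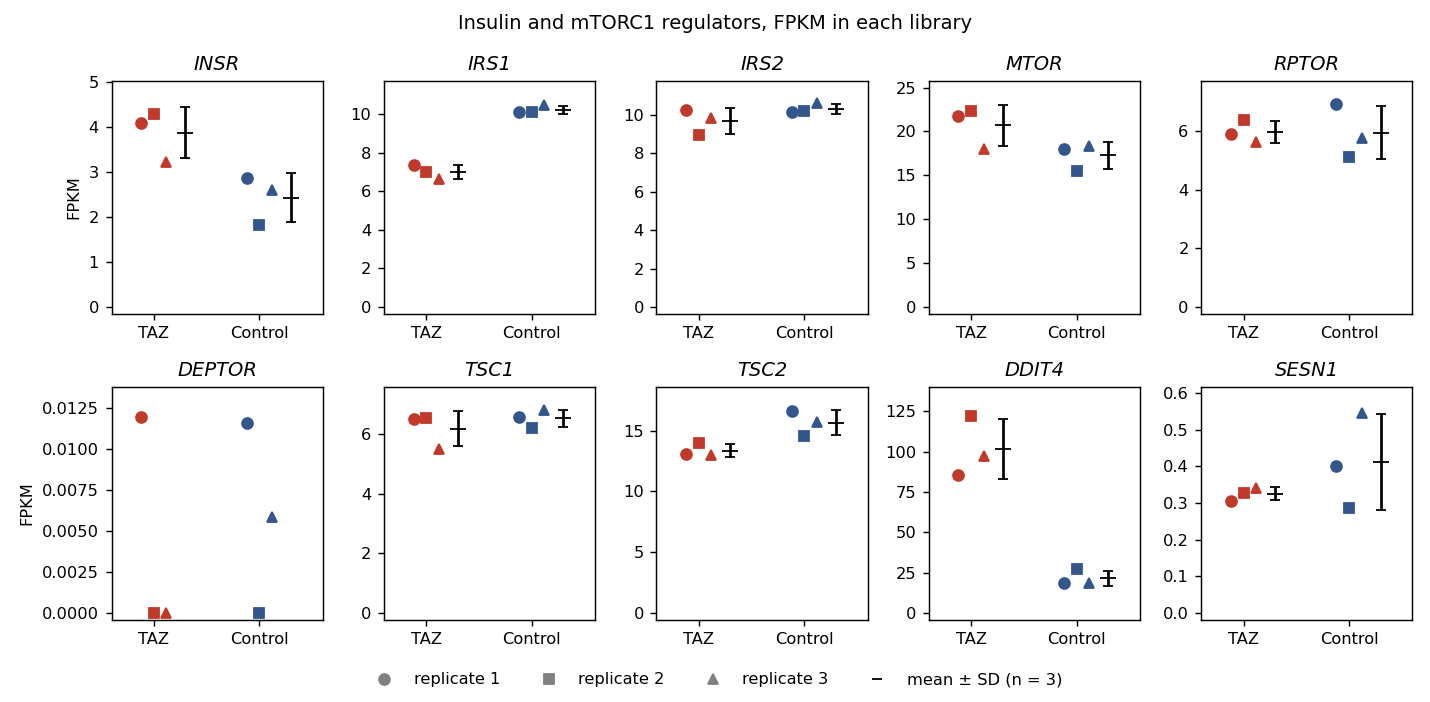
FPKM of the 10 regulators (vertical axes from about 0, a scale for each gene) in the TAZ libraries, red, and the Control libraries, blue, with 1 marker shape per replicate number and black bars for mean ± SD (n = 3; not drawn for DEPTOR, which rests on 0 to 2 counts a library). DDIT4 separates most, at 85.6 to 122 FPKM in TAZ libraries and 18.6 to 27.1 FPKM in Control libraries, and IRS1 lies lower in every TAZ library.

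Of the 8 members that passed the filter of 1 FPKM or more in at least 3 libraries, 3 passed the test, 2 higher in TAZ cells (DDIT4 and INSR) and 1 lower (IRS1). Over all genes tested, 37.9% passed, 15.7% higher and 22.1% lower in TAZ cells, so the members' count was near the background share. Of the calls over all genes, 41.6% were higher in TAZ cells, and 52.4% with median-ratio scaling. The groups did not overlap for 4 of the 8, namely DDIT4, INSR, IRS1 and TSC2, beside 48.4% of all tested genes. DDIT4 and INSR lay higher, beside 19.7% of all tested genes, and IRS1 and TSC2 lower, beside 28.7%. DDIT4 had the largest change of the 8, and the other 7 had log2 fold changes between -0.49 and 0.51. The 25th to 75th percentiles of all tested genes ran from -0.24 to 0.15.

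**Figure D2:**
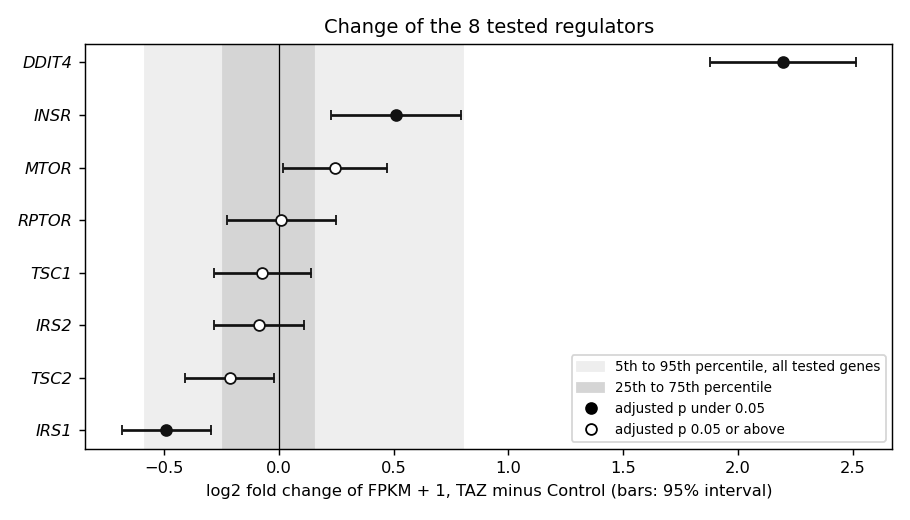
Log2 fold change of FPKM + 1 (horizontal axis, TAZ minus Control) of the 8 tested regulators with 95% intervals, filled where the adjusted p was under 0.05, over grey bands for the 5th to 95th and 25th to 75th percentiles of all tested genes. DDIT4, at 2.19, lies beyond the wide band, which ends at 0.80, and the other 7 lie inside it.

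At the receptor and its adaptors, INSR rose, IRS1 fell, and IRS2 did not pass the test. INSR, the insulin receptor gene, had 4.10, 4.28 and 3.23 FPKM in TAZ replicates 1, 2 and 3, against 2.86, 1.82 and 2.60 FPKM in Control replicates 1, 2 and 3. The groups did not overlap, but the lowest TAZ library was close to the highest Control library. The means were 3.87 ± 0.564 FPKM in TAZ cells and 2.43 ± 0.541 FPKM in Control cells (SD, n = 3 each), a ratio of 1.59 and a log2 fold change of 0.51 (SE 0.13, 95% interval 0.23 to 0.79, limma adjusted p = 0.00781). With no filter on low genes the call was lost at a limma adjusted p of 0.0509.

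IRS1, the main adaptor of the insulin receptor in many tissues, stood at 7.35, 6.995 and 6.65 FPKM in TAZ replicates 1, 2 and 3, against 10.12, 10.09 and 10.45 FPKM in Control replicates 1, 2 and 3. All 3 TAZ libraries lay below all 3 Control libraries, and the spread within each group was small. IRS1 averaged 6.997 ± 0.349 FPKM in TAZ cells and 10.2 ± 0.202 FPKM in Control cells (SD, n = 3 each), a ratio of 0.684. It fell by 0.49 on the log2 scale (SE 0.090, 95% interval -0.68 to -0.30, limma adjusted p = 0.000871). IRS2, the second widely expressed adaptor, had 10.26, 8.94 and 9.85 FPKM in TAZ replicates 1, 2 and 3, against 10.15, 10.2 and 10.6 FPKM in Control replicates 1, 2 and 3. These ranges overlapped, and the log2 fold change of -0.086 (95% interval -0.28 to 0.11) did not pass (limma adjusted p = 0.489).

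The levels of both adaptors were nearly equal in Control cells and unequal in TAZ cells. The ratio of IRS2 to IRS1 FPKM, which does not depend on how libraries are scaled, was 1.40, 1.28 and 1.48 in TAZ replicates 1, 2 and 3, against 1.0, 1.01 and 1.02 in Control replicates 1, 2 and 3. Every TAZ library had the higher ratio, with a mean log2 ratio of 0.468 ± 0.107 in TAZ cells and 0.0144 ± 0.00865 in Control cells (SD, n = 3 each). The difference was 0.453 on the log2 scale, or 1.37-fold (exact permutation test, two-sided p = 0.10, the smallest that 3 libraries against 3 can give).

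**Figure D3:**
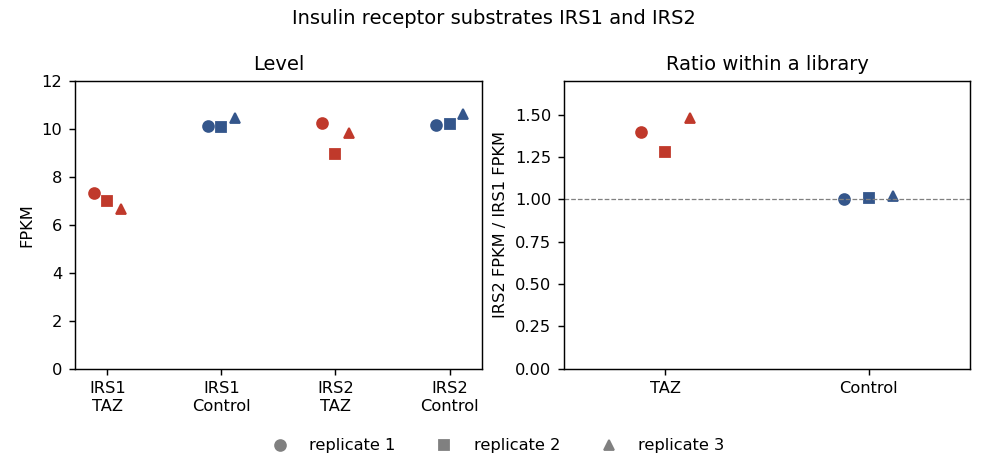
Left, FPKM of IRS1 and IRS2 in each library of TAZ cells (red) and Control cells (blue); right, the ratio of IRS2 to IRS1 FPKM within each library, with a dashed line at 1. The ratio is 1.28 to 1.48 in TAZ libraries and 1.0 to 1.02 in Control libraries.

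MTOR and RPTOR, which encode the kinase and the scaffold of mTORC1, were expressed in both groups and did not pass the test. MTOR, the kinase, had 21.8, 22.3 and 18.0 FPKM in TAZ replicates 1, 2 and 3, against 18.0, 15.5 and 18.4 FPKM in Control replicates 1, 2 and 3. TAZ replicates 1 and 2 lay above all Control libraries and TAZ replicate 3 lay among them. The log2 fold change was 0.24 (SE 0.10, 95% interval 0.019 to 0.47, limma adjusted p = 0.0828). MTOR passed as higher in TAZ cells with median-ratio scaling (limma adjusted p = 0.0385), with voom on the recovered counts (limma adjusted p = 0.0284) and without TAZ replicate 3 (limma adjusted p = 0.0365). RPTOR, the scaffold that brings substrates to mTORC1, had 5.895, 6.37 and 5.64 FPKM in TAZ replicates 1, 2 and 3, against 6.92, 5.13 and 5.78 FPKM in Control replicates 1, 2 and 3. The TAZ libraries lay within the range of the Control libraries, with a log2 fold change of 0.012 (95% interval -0.23 to 0.25, limma adjusted p = 0.946).

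DEPTOR, the inhibitor that binds mTOR, was at the limit of detection. It had 2, 0 and 0 counts in TAZ replicates 1, 2 and 3, against 2, 0 and 1 counts in Control replicates 1, 2 and 3. The highest library was at 0.0119 FPKM, while a count of 0 allows up to 3 counts, or 0.0161 to 0.0180 FPKM in these libraries, for counting error only. A difference in DEPTOR was not detectable at this depth.

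TSC1 and TSC2, whose products together switch RHEB off, were both expressed, and neither passed. TSC1 had 6.50, 6.535 and 5.51 FPKM in TAZ replicates 1, 2 and 3, against 6.56, 6.22 and 6.81 FPKM in Control replicates 1, 2 and 3, and the groups overlapped. Its log2 fold change was -0.071 (95% interval -0.28 to 0.14, limma adjusted p = 0.604). TSC2, which carries the GTPase-activating domain, had 13.1, 14.0 and 13.0 FPKM in TAZ replicates 1, 2 and 3, against 16.65, 14.6 and 15.7 FPKM in Control replicates 1, 2 and 3. All TAZ libraries lay below all Control libraries, by a small margin, and the log2 fold change of -0.21 (SE 0.090, 95% interval -0.41 to -0.020) missed the threshold (limma adjusted p = 0.0783). On the FPKM + 1 scale, the lower ends of these intervals lie at 0.821 times the Control level for TSC1 and 0.754 times for TSC2.

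SESN1, a sestrin that restrains mTORC1 through the amino acid sensing branch, was low in both groups and below the filter. It had 0.306, 0.328 and 0.341 FPKM in TAZ replicates 1, 2 and 3, against 0.402, 0.286 and 0.546 FPKM in Control replicates 1, 2 and 3. The TAZ libraries lay within the Control range, on 146 counts in all TAZ libraries and 176 counts in all Control libraries. With no filter the log2 fold change was -0.087 (SE 0.064, limma adjusted p = 0.381), and a pseudocount of 1 shrinks a change at so low a level.

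Its paralogs did not follow it. SESN2, a stress-induced sestrin that binds leucine, had 17.2, 16.1 and 16.1 FPKM in TAZ replicates 1, 2 and 3, against 8.55, 13.5 and 10.3 FPKM in Control replicates 1, 2 and 3. The groups did not overlap and SESN2 rose (ratio of means 1.52, log2 fold change 0.59, limma adjusted p = 0.00328). SESN3, known as a FOXO target, had 15, 2 and 10 counts in TAZ replicates 1, 2 and 3, against 87, 87 and 85 counts in Control replicates 1, 2 and 3. It was below the filter, and with no filter it passed as lower in TAZ cells (0.0265 ± 0.0202 FPKM in TAZ cells and 0.261 ± 0.00599 FPKM in Control cells, SD, n = 3 each, limma adjusted p = 0.00013). Per length, SESN2 was the most abundant of the 3 sestrin genes in both groups. DDIT4L, the paralog of DDIT4, had 0 counts in all 6 libraries, which allows up to 3 counts per library.

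**Figure D4:**
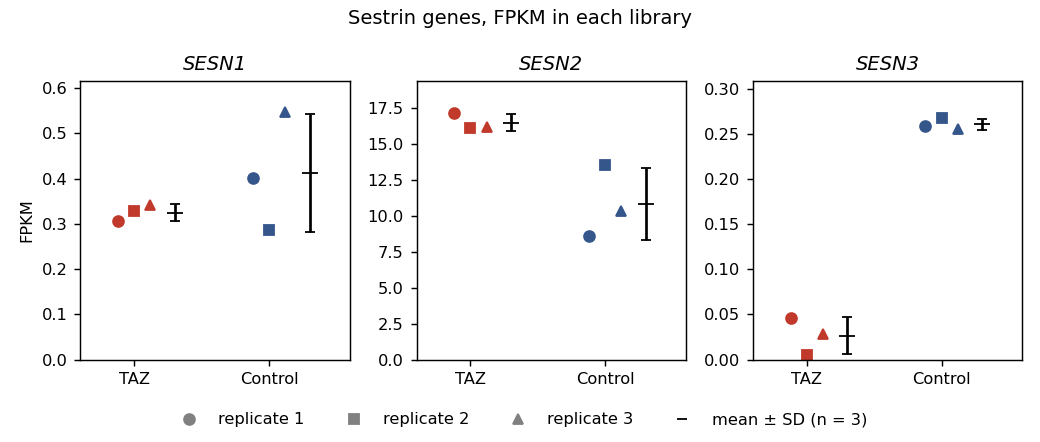
FPKM of SESN1, SESN2 and SESN3 (vertical axes from 0, a scale for each gene) in each TAZ library, red, and Control library, blue, with mean ± SD (n = 3) in black. SESN2 is 16.1 to 17.2 FPKM in TAZ libraries and 8.55 to 13.5 FPKM in Control libraries, while SESN3 has under 0.05 FPKM in TAZ libraries and about 0.26 FPKM in Control libraries.

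Per length, the members had the same order of mean level in both groups, from DDIT4 through MTOR, TSC2, IRS2, IRS1, TSC1, RPTOR, INSR and SESN1 to DEPTOR. In TAZ cells only TSC1 and RPTOR, of neighbours in that order above DEPTOR, had overlapping ranges. In Control cells the ranges of MTOR and TSC2, of IRS2 and IRS1, and of TSC1 and RPTOR overlapped, and the lowest DDIT4 value, 18.6 FPKM, was just above the highest MTOR value, 18.4 FPKM. By distance between centred log2 values over the 6 libraries, the genes nearest to DDIT4 were PSMB10 (0.441), MST1R (0.460) and EPHX2 (0.479), with log2 fold changes of 2.27, 2.24 and 2.37. Nearest to INSR, the member with the next largest change, were HEG1 (0.0926), NEMP1 (0.152) and H6PD (0.157). For these, as for INSR, the lowest TAZ library was replicate 3 and the lowest Control library replicate 2. All these neighbours were picked for nearness to the member's own values, so their similar changes and replicate patterns follow from the choice.

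The rest of the pathway was read from 7 lists of 105 genes, of which 102 were in the tables and 92 were tested. Of these 92, 12 rose and 17 fell (13.0% and 18.5%, beside 15.7% and 22.1% of all tested genes), with a median log2 fold change of -0.058 against -0.050 over all tested genes. The pathway lists together thus moved no more often than the background. The shares given for single lists below stand beside the same 15.7% and 22.1% of all tested genes.

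Among adaptors and terminators of the insulin receptor, 3 of 14 tested genes rose and 2 fell (21.4% and 14.3%, median log2 fold change -0.013). Only 1 rose without Control replicate 2. PTPN1, the phosphatase that switches the insulin receptor off, rose to 17.1 ± 1.25 FPKM in TAZ cells, against 10.9 ± 0.207 FPKM in Control cells (SD, n = 3 each, log2 fold change 0.60, limma adjusted p = 0.000173). PTPRF, a receptor phosphatase, fell to 14.9 ± 0.675 FPKM in TAZ cells, against 19.4 ± 1.26 FPKM in Control cells. The adaptors GRB10 and GAB1 rose by 0.30 and 0.34 on the log2 scale, and IGF1R, the receptor for insulin-like growth factor, fell by 0.30. These last calls were weak: GRB10 was lost without TAZ replicate 3 or Control replicate 2 (limma adjusted p = 0.0679 and 0.0517) and GAB1 without TAZ replicate 1, Control replicate 2 or Control replicate 1 (limma adjusted p = 0.135, 0.11 and 0.0841). IGF1R was lost without TAZ replicate 3, TAZ replicate 2 or Control replicate 3 (limma adjusted p = 0.137, 0.067 and 0.073) and with median-ratio scaling (limma adjusted p = 0.0543). The 2 that fell became 1 without TAZ replicate 2, TAZ replicate 3 or Control replicate 3.

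Of 19 tested PI3K and AKT genes, 4 rose and 2 fell (21.1% and 10.5%, median -0.015). Only 2 rose without TAZ replicate 1, Control replicate 1 or Control replicate 2. INPP4B, a lipid phosphatase that removes a phosphate from PI(3,4)P2, had 4.43, 3.42 and 3.65 FPKM in TAZ replicates 1, 2 and 3, against 1.35, 1.27 and 1.46 FPKM in Control replicates 1, 2 and 3 (log2 fold change 1.03, limma adjusted p = 5.69e-06). PIK3R2, a regulatory subunit of PI3-kinase, fell to 25.1 ± 1.14 FPKM in TAZ cells, against 39.0 ± 3.17 FPKM in Control cells (limma adjusted p = 0.000124). AKT2, the AKT form most tied to insulin action in fat, fell to 13.2 ± 0.760 FPKM in TAZ cells, against 17.6 ± 1.06 FPKM in Control cells (limma adjusted p = 0.00437). AKT1 was far more abundant and did not pass, at 172 ± 17.7 FPKM in TAZ cells and 193 ± 18.8 FPKM in Control cells (limma adjusted p = 0.213). PIK3CA, a catalytic subunit, rose by 0.36 on the log2 scale, a call lost without TAZ replicate 1, Control replicate 2 or Control replicate 1 (limma adjusted p = 0.149, 0.0805 and 0.116).

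Among other subunits and assembly factors of the mTOR complexes, 1 of 11 tested genes rose and 2 fell (9.09% and 18.2%), with a median of -0.037. RICTOR, the defining subunit of mTORC2, rose to 3.26, 2.09 and 2.16 FPKM in TAZ replicates 1, 2 and 3, against 1.34, 1.47 and 1.603 FPKM in Control replicates 1, 2 and 3 (log2 fold change 0.49, limma adjusted p = 0.00777). PRR5, an mTORC2 subunit, fell to 15.6 ± 1.58 FPKM in TAZ cells, against 22.9 ± 3.58 FPKM in Control cells (SD, n = 3 each, limma adjusted p = 0.00368). MLST8, a subunit of both complexes, fell by 0.26 on the log2 scale, a call that was lost without TAZ replicate 3, TAZ replicate 1, Control replicate 2 or Control replicate 1 (limma adjusted p = 0.111, 0.17, 0.129 and 0.117) and with median-ratio scaling (limma adjusted p = 0.108). Without any 1 of those 4 libraries only 1 gene of this list fell. RHEB, the activator that the TSC complex controls, was abundant at 120.5 ± 3.0 FPKM in TAZ cells and 116 ± 3.94 FPKM in Control cells and did not pass (limma adjusted p = 0.609). AKT1S1, which encodes the mTORC1 inhibitor PRAS40, had 11.2 ± 0.970 FPKM in TAZ cells and 9.62 ± 0.925 FPKM in Control cells (limma adjusted p = 0.151).

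The amino acid branch carries nutrient signals to mTORC1 at the lysosome. Its calls were mostly small falls, and with the deposited scaling the calls over all tested genes were mostly falls too. Of 18 tested activators, 1 rose and 6 fell (5.56% and 33.3%, beside 15.7% and 22.1% of all tested genes, median -0.19). Only 3 fell without TAZ replicate 1 or TAZ replicate 2. With median-ratio scaling 3 of the 18 fell, beside 16.9% of all tested genes. The falls were led by LAMTOR4 and LAMTOR1, subunits of the Ragulator anchor, and the GTPase gene RRAGA, with log2 fold changes of -0.49, -0.38 and -0.33. LAMTOR4 averaged 199 ± 19.1 FPKM in TAZ cells and 282 ± 39.0 FPKM in Control cells (SD, n = 3 each, limma adjusted p = 0.00285). SLC38A9, the lysosomal arginine sensor, rose by 0.35 on the log2 scale, a call lost without TAZ replicate 1, Control replicate 2 or Control replicate 1 (limma adjusted p = 0.111, 0.051 and 0.074), so that 0 activators rose without any 1 of these. Of 7 tested inhibitors of this branch, 0 rose and 2 fell (28.6%, beside 22.1% of all tested genes, median -0.085). These were KPTN and NPRL2, which fell by 0.52 and 0.37 on the log2 scale (limma adjusted p = 0.00129 and 0.00667).

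Of 8 tested stress and energy inhibitors, SESN2 alone rose and PRKAG2 alone fell (12.5% in each direction), with a median of 0.015. PRKAG2, a regulatory subunit of the energy sensor AMPK, had 14.4, 12.3 and 13.7 FPKM in TAZ replicates 1, 2 and 3, against 30.6, 28.3 and 30.3 FPKM in Control replicates 1, 2 and 3. The groups were far apart, with a log2 fold change of -1.09 (limma adjusted p = 7.00e-07). Among 15 tested effectors of mTORC1, 2 rose and 2 fell (13.3% in each direction), with a median of -0.079. SREBF1 and LPIN1, lipid regulators downstream of mTORC1, rose by 1.14 and 1.01 on the log2 scale. EIF4B, a translation factor phosphorylated by S6 kinase, fell to 79.6 ± 2.96 FPKM in TAZ cells, against 116 ± 7.61 FPKM in Control cells (limma adjusted p = 0.000189), and RPS6, the ribosomal protein that S6 kinase marks, fell by 0.36 on the log2 scale (limma adjusted p = 0.00575). The kinase gene RPS6KB1 and the translation repressor gene EIF4EBP1 did not pass (limma adjusted p = 0.633 and 0.492). No phosphorylation was measured, so these values describe transcript levels and not the activity of the pathway.

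**Figure D5:**
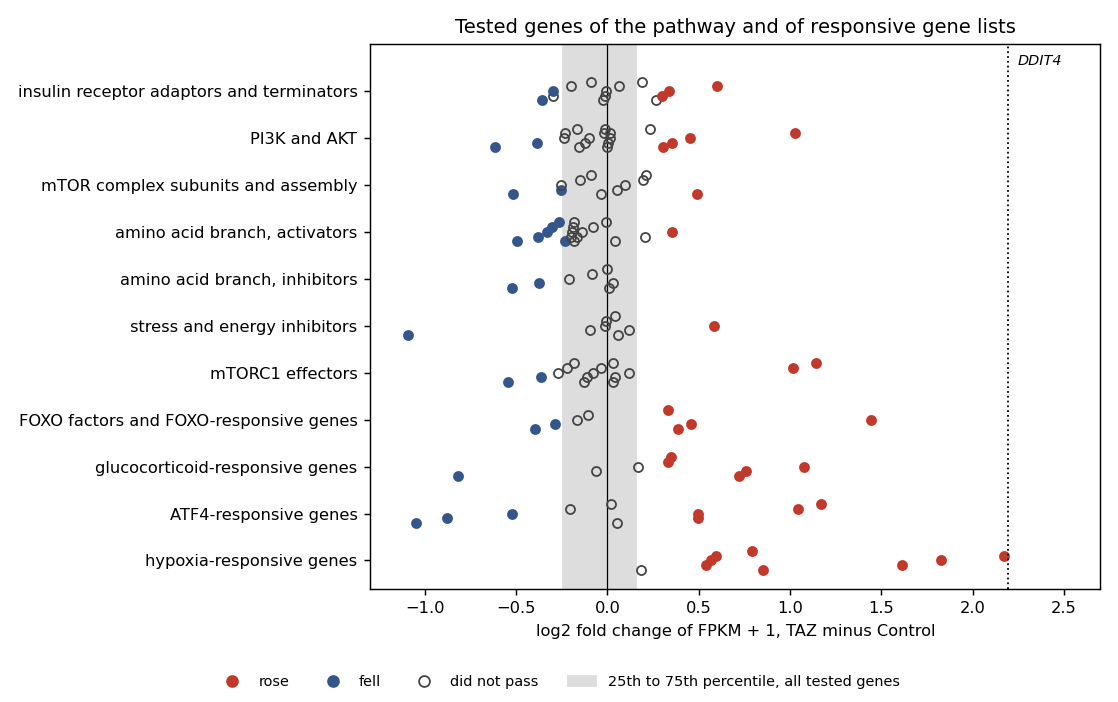
Log2 fold change of FPKM + 1 (horizontal axis, TAZ minus Control) of each tested gene in the pathway lists and 4 lists of responsive genes, 1 point per gene, red where it rose, blue where it fell and open where it did not pass, with a grey band for the 25th to 75th percentile of all tested genes. The medians of the pathway lists lie between -0.19 (amino acid branch, activators) and 0.015 (stress and energy inhibitors), hypoxia-responsive genes lie to the right with a median of 0.79, and the dotted line marks DDIT4 at 2.19.

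DDIT4 is known to respond to low oxygen, glucocorticoids and the stress factor ATF4, and INSR, IRS2, SESN1 and SESN3 to FOXO factors, so 4 further lists give the levels of these responses in the same libraries. Each list holds the factor itself where named below, and no list shares a gene with the members. These lists, like the 7 pathway lists, were chosen with earlier results of these data known. Their shares beside all tested genes are therefore descriptions and not independent evidence. The link between any of them and DDIT4 was not tested.

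Of 9 tested hypoxia-responsive genes, 8 rose (88.9%, beside 15.7% of all tested genes) and 0 fell (beside 22.1%). The median log2 fold change was 0.79. ANKRD37 reached 1 FPKM in TAZ libraries only, at 1.46 to 2.23 FPKM, against 0.42 to 0.63 FPKM in Control libraries. It thus entered the test only through the group where it was high. Without any 1 TAZ library it was not tested, and 7 of 8 tested genes rose. EGLN3, a HIF prolyl hydroxylase, changed by 2.17 on the log2 scale, close to DDIT4, and ADM, the vasodilator peptide adrenomedullin, and BNIP3, a mitophagy receptor, by 1.83 and 1.61. HIF1A, the oxygen-regulated factor, rose to 90.1 ± 11.3 FPKM in TAZ cells, against 61.9 ± 9.67 FPKM in Control cells (SD, n = 3 each, limma adjusted p = 0.00309).

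Of 8 tested glucocorticoid-responsive genes, 5 rose and 1 fell (62.5% and 12.5%, beside 15.7% and 22.1% of all tested genes). The median was 0.34. PER1 reached 1 FPKM in TAZ libraries only, at 1.31 to 1.59 FPKM, against 0.849 to 0.989 FPKM in Control libraries. It could therefore be tested only through the group where it was high. Without any 1 TAZ library PER1 was not tested. Of the 7 genes then tested, 3 rose without TAZ replicate 1 or TAZ replicate 3. NR3C1, the glucocorticoid receptor gene, had 11.3, 9.41 and 9.90 FPKM in TAZ replicates 1, 2 and 3, against 5.41, 5.325 and 6.16 FPKM in Control replicates 1, 2 and 3 (log2 fold change 0.76, limma adjusted p = 7.00e-05). FKBP5, a chaperone that glucocorticoids induce, and KLF9, a zinc finger factor, rose by 0.72 and 1.08 on the log2 scale. SGK1, a kinase related to AKT that glucocorticoids also induce, fell to 5.69 ± 1.78 FPKM in TAZ cells, against 10.5 ± 1.21 FPKM in Control cells (limma adjusted p = 0.00204).

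ATF4-responsive genes went both ways, with 4 of 10 that rose and 3 that fell, beside 15.7% and 22.1% of all tested genes. The median was 0.036. VLDLR, SLC7A11 and DDIT3 rose by 1.17, 1.04 and 0.50 on the log2 scale. The amino acid synthesis genes PSAT1, ASNS and PHGDH fell, with log2 fold changes of -1.05, -0.88 and -0.52. ATF4 itself did not pass at 427 ± 40.4 FPKM in TAZ cells and 414 ± 61.8 FPKM in Control cells (SD, n = 3 each, limma adjusted p = 0.744).

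FOXO factors and FOXO-responsive genes had 4 of 8 that rose and 2 that fell (median 0.11), beside 15.7% and 22.1% of all tested genes. The genes that rose included the factors FOXO1 and FOXO3 themselves. Among the responsive genes the calls went both ways, as TXNIP and GADD45A rose while CITED2 and BCL6 fell. Only 1 gene of this list fell without TAZ replicate 2, TAZ replicate 3, Control replicate 1 or Control replicate 2. TXNIP, an inhibitor of thioredoxin and of glucose uptake, rose to 34.2 ± 0.747 FPKM in TAZ cells, against 12.1 ± 2.18 FPKM in Control cells (SD, n = 3 each, log2 fold change 1.44, limma adjusted p = 3.99e-07). FOXO3 and FOXO1 rose by 0.46 and 0.33 on the log2 scale, and the call of FOXO1 was lost without TAZ replicate 2, TAZ replicate 1 or Control replicate 2 (limma adjusted p = 0.0509, 0.068 and 0.0575). GADD45A rose by 0.39, a call lost without Control replicate 1 (limma adjusted p = 0.0564). CITED2 fell by 0.40, and BCL6 fell by 0.29, which was lost without TAZ replicate 3, TAZ replicate 2, Control replicate 2 or Control replicate 1 (limma adjusted p = 0.103, 0.102, 0.0511 and 0.0772) and with median-ratio scaling (limma adjusted p = 0.0511).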

How the data were processed

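Per the labels' protocols, RNA was isolated with TRIzol and sequencing libraries were built with a VAHTS Universal V6 kit. Trimming, alignment and counting tools (fastp, HISAT2, HTSeq) are named without versions, per the submitters' processing notes. Genome build, strand setting and handling of shared reads: not given in the sources used here. Coordinates are therefore left out, and near-identical or overlapping genes carry uncertain values. The deposited values are FPKM, in 1 table per group with the same 16285 rows. The 23 rows with a date in place of a symbol were left out, which left 16262.

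Because FPKM is a count divided by gene length and library total, whole counts were recovered from the steps of low values, for 99.99% of rows above 0, within 0.02 of a whole number. For 277 short genes the counts were whole when the length was set to the gene span in RefSeq assembly ARS1.2, and only 4 of these had even counts throughout. The common scale of all counts, totals and floors was taken as the largest at which most gene lengths came out whole. FPKM values alone do not fix this scale, and the RefSeq spans served only as a check on it. The number of short genes tried in that check was not recorded. It is not known whether 1 count is a read or a read pair. Recovered counts made up 99.67% to 99.71% of the library totals. At the median length of tested genes, 1 FPKM stood for 105 counts. Floors cover counting error only. Counts of replicates differed by more than sampling noise (chi-square per degree of freedom 18.29 to 28.59 within groups and 194.27 to 238.83 between groups).

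A gene was kept if 3 or more of the 6 libraries reached 1 FPKM (10750 genes). Values were taken as log2(FPKM + 1), which understates the change of low genes, and tested with limma 3.58.1 in R 4.3.3 (moderated test with a mean-variance trend, two-sided, Benjamini-Hochberg over all kept genes, threshold 0.05). The fit was checked only on simulated data with independent values and few genes changed. The check does not cover a setting like this one, where 37.9% of tested genes passed. The IRS2 to IRS1 ratio was compared by an exact permutation test in scipy 1.17.1. The named genes are the 10 members, WWTR1, up to 3 called genes in each direction per list, a fixed set of pathway genes, and the 3 genes nearest to each of the 2 members that changed most. Some genes that this rule names, and 1 gene list, are not reported here. The members and lists were chosen with earlier results of these data known.

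The alternatives were other pseudocounts (0.1 and 0.5), no filter and a mean of 5 FPKM, median-ratio, quantile and top-50 rescaling, other variance settings, voom on recovered counts, a replicate block, an adjusted p under 0.01, and leaving out each library.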

Additional observations from a re-analysis of the deposited data

How the results depend on the processing

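Over the alternatives run, DDIT4 kept its direction and its call with log2 fold changes of 2.06 to 2.36, and IRS1 with -0.54 to -0.44. IRS2, TSC1 and TSC2 never passed. RPTOR, near 0 throughout, changed sign to -0.0169 with quantile normalization and ranged from -0.0739 to 0.11 when 1 library was left out. With 1 library left out, log2 fold changes that did not pass with all libraries either turned sign within -0.155 to 0.0333 for RPS6KB1, -0.223 to 0.0175 for EIF4EBP1 and -0.0477 to 0.164 for ATF4, and the cause was not tested. Among members, 1 was higher in TAZ cells with no filter (INSR missed) and 1 with the stricter filter (INSR not tested), while 3 were with median-ratio scaling or voom, MTOR being added.

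Genes higher and lower in TAZ cells numbered 1693 and 2381 (41.6% of calls higher), and 2001 and 1821 with median-ratio scaling (52.4% higher). At an adjusted p under 0.01, 1408 were lower. Leaving out 1 library gave 1247 to 1874 higher and 1733 to 2392 lower. The difference in log2 IRS2 to IRS1 ratio was 0.404 to 0.51 over its alternatives.

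List counts moved as follows. With median-ratio scaling 5 adaptors or terminators of the insulin receptor rose and 1 fell. With this scaling 1 mTOR complex gene, 3 amino acid activators and 1 FOXO gene also fell. With voom 5 adaptors or terminators rose, and 1 mTOR complex gene and 3 activators fell. Rescaling without the top 50 rows left 1 adaptor or terminator, 1 mTOR complex gene and 1 FOXO gene that fell. With the stricter filter 2 PI3K and AKT genes, 0 mTOR complex genes, 0 activators and 1 effector rose. That filter left 14, 6, 12 and 12 genes of these lists tested, in place of 19, 11, 18 and 15. INPP4B, RICTOR, SLC38A9 and LPIN1 were not tested there, as their means lay under 5 FPKM. With no filter 1 mTOR complex gene fell, 0 activators rose, and 2 stress inhibitors rose and 2 fell, SESN3 being added. Leaving out 1 library gave 1 to 4 adaptors or terminators that rose and 1 to 3 that fell, and 2 to 4 PI3K and AKT genes that rose. It also gave 1 to 3 mTOR complex genes that fell, and 0 to 1 activators that rose and 3 to 6 that fell. With 1 library left out, 1 to 2 FOXO genes fell and 3 to 5 glucocorticoid-responsive genes rose.

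Libraries that shared a replicate number did not deviate together (correlations of -0.436, -0.112 and -0.403 across genes for numbers 1, 2 and 3). Of the 3 TAZ libraries, 0 correlated best with their own number. These values cannot show whether same-numbered libraries were prepared together, which the labels do not give. The highest correlations were between differently numbered libraries, at 0.691 for TAZ replicate 1 with Control replicate 3, 0.534 for TAZ replicate 2 with Control replicate 1 and 0.552 for TAZ replicate 3 with Control replicate 2. Values were centred within each group of 3, so negative correlations are balanced by positive ones, and whether these pairs share a batch was not tested. The replicate block joined same-numbered libraries, so it does not test the pairs with the highest correlations. With this block 1548 genes were higher and 1964 lower, and 2 members rose and 1 fell. It left 1 adaptor or terminator, 1 mTOR complex gene and 1 FOXO gene that fell. Depth limits DEPTOR, SESN1 and SESN3, which rest on few counts.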
